A study of Mus musculus with 16 samples.

Results

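The respiratory chain genes described here are 94 of the 10296 genes listed for sorted neutrophils, 81 of them encoded in the nucleus and 13 in the mitochondrial DNA. They were taken by symbol: names opening with Ndufa, Ndufb, Ndufc, Ndufs or Ndufv, Sdha to Sdhd, names opening with Uqcr, Cyc1, Cox4 to Cox8 and Atp5, and the mitochondrial genes mt-Nd, mt-Co, mt-Cytb and mt-Atp. The rule uses names and no measured value. Neutrophils carrying CD45, CD11b and Ly6G were sorted from blood, spleen and lung of C57BL/6 mice, and RNA-seq was run on their amplified RNA. Mice were either germ-free (GF, kept free of all microbes) or SPF, specific pathogen free, with a microbiota. There were 16 libraries: 2 from GF blood, 2 from SPF blood, and 3 each from GF spleen, SPF spleen, GF lung and SPF lung. The labels describe no treatment, allele or age. Whether each library of a group is a different animal is not said, so p-values measure only the spread among the libraries at hand, and that spread may be technical.

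The respiratory chain sits in the inner mitochondrial membrane. Complex I (NADH dehydrogenase) and complex II (succinate dehydrogenase) pass electrons through ubiquinone to complex III, cytochrome c and complex IV (cytochrome c oxidase), and complex V (ATP synthase) uses the proton gradient that results. Complex II is encoded wholly in the nucleus, while the other complexes are built from proteins of both genomes. The mitochondrial genes are transcribed as long precursors that also carry the ribosomal RNAs, and these are cut apart at the transfer RNAs. Mature neutrophils have few mitochondria and are known for making most of their ATP by glycolysis.

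By complex, the nuclear members comprised 37 subunits counted with complex I (7 core and 30 accessory) and 3 complex I assembly factors, 4 subunits of complex II, 9 of complex III, 11 of complex IV and 15 of complex V. A further 2, Atp5s and Atp5sl, carry the Atp5 name without being subunits of the enzyme. Ndufa4, named for complex I, is now placed with complex IV and was counted here by its name. The mitochondrial members were 7 subunits of complex I, mt-Cytb of complex III, 3 subunits of complex IV and 2 of complex V. Of the 94 members, 92 passed the filter on low values, with 79 nuclear and 13 mitochondrial. The exceptions were Ndufaf1 and Atp5s.

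Neighbouring mitochondrial genes share bases, which limits how their reads can be told apart. In the GENCODE M21 annotation of GRCm38, mt-Atp8 and mt-Atp6 overlap by 43 bases, mt-Nd4l and mt-Nd4 by 7, and mt-Atp6 and mt-Co3 by 1, all on the same strand. On opposite strands, mt-Nd5 and mt-Nd6 overlap by 14 bases, and no strand-aware counting was stated. The whole of mt-Atp8 (chrM:7766-7969) and the last 60 bases of mt-Nd4l (chrM:10114-10173) are shown from the annotation's transcripts, plus strand, with the bases shared with the next gene in capitals.
mt-Atp8: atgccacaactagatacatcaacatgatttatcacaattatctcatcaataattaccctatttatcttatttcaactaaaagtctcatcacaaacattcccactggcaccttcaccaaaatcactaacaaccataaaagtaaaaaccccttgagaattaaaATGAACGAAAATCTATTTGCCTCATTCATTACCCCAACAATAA
mt-Nd4l: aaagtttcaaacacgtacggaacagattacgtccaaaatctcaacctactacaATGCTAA
Mitochondrial sequences also have near-identical copies in the nuclear genome, so the assignment of their reads is uncertain.

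Depth, as reads recovered from the deposited values, ran from 104213 to 3033941 per library. The median was 1344026.5 in GF blood, 2952250 in SPF blood, 196633 in GF spleen, 202341 in SPF spleen, 815506 in GF lung and 897132 in SPF lung. GF blood replicate 3 stood apart from GF blood replicate 2, with 132798 against 2555255 reads. Of the neutrophil genes, Csf3r, the granulocyte colony-stimulating factor receptor, was at 4844 to 10000 normalised counts in every library. The calprotectin gene S100a8 was at 10940 to 26287 in blood, 5298 to 18862 in spleen and 5550 to 13479 in lung. Cxcr2 was at 5091 to 7877 in blood, 3437 to 5254 in spleen and 2251 to 3049 in lung. Summed levels of 18 neutrophil genes were 66752 to 112859 in blood, 59167 to 114449 in spleen and 62834 to 90853 in lung. Ly6g, which encodes the sort marker, was at 29.6 to 170 in blood, 72.1 to 411 in spleen and 20.3 to 51.3 in lung. For 20 genes of lung epithelium, endothelium and stroma the summed level was 48.2 to 74.1 in blood, 37.6 to 86.2 in spleen and 3768 to 12924 in lung. Summed levels of 14 erythroid and platelet genes were 44760 to 100170 in blood and 154 to 2184 in lung. In spleen they were 22098 in GF replicate 1 and 54.1 to 107 in the other libraries. In RNA of bulk-sorted cells, fewer cells of a type and less RNA per cell cannot be told apart.

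The mitochondrial members were lowest in blood and highest in lung. The nuclear members were highest in SPF blood, and their sum ran from 3102 to 6064 elsewhere. A level is a normalised count, which is the table's value with the library's offset taken off. Summed over the 13 mitochondrial members, the level was 851 and 607 in the GF blood libraries and 1394 and 1235 in SPF blood. It was 2085, 1622 and 1298 in GF spleen, and 892, 1608 and 1778 in SPF spleen. In lung it was 5905, 6989 and 12728 in GF and 4271, 4541 and 6463 in SPF mice. Every lung library thus lay above every spleen and blood library, while spleen and blood overlapped, and GF lung replicate 4 was the highest of all. The sum over the 81 nuclear members was 6064 and 4141 in GF blood, 8795 and 7580 in SPF blood, 3465 to 4986 in GF spleen and 3102 to 5447 in SPF spleen. In lung it was 4697 to 5019 in GF and 4525 to 5405 in SPF mice. The SPF blood libraries stood above all others in the nuclear sum.

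**Figure D1:**
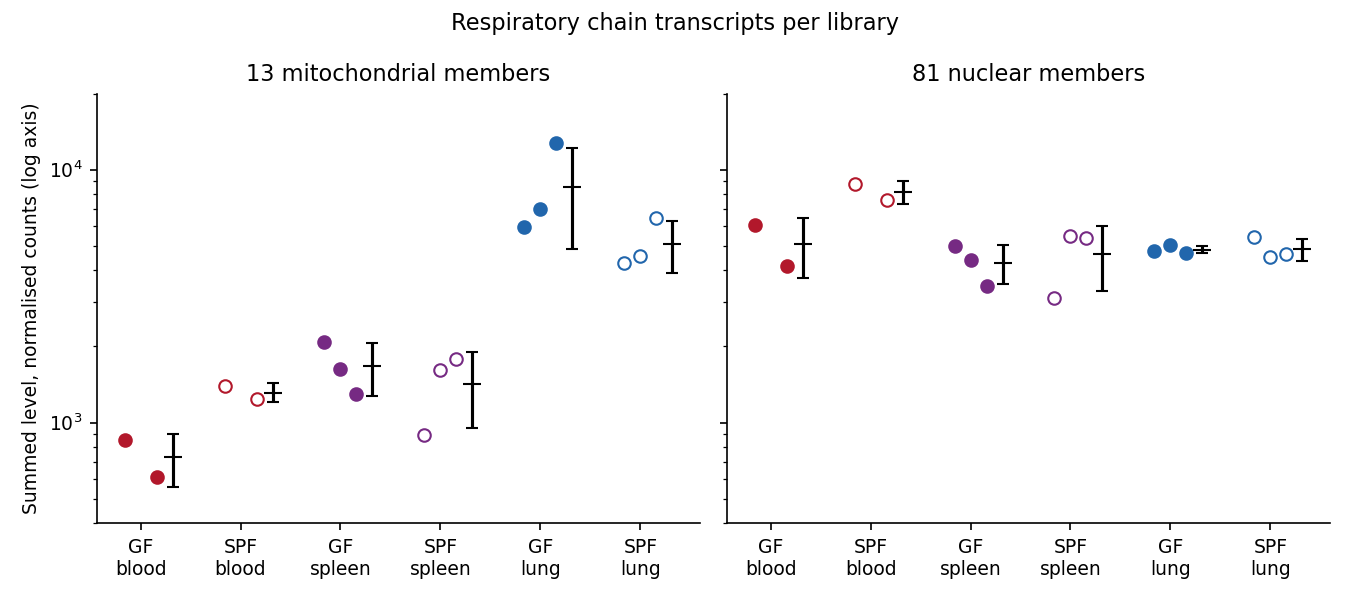
Summed level of the 13 mitochondrial members (left) and the 81 nuclear members (right) in each library, in normalised counts on a log axis, by group (filled points GF, open points SPF, bars mean ± SD of each group). The mitochondrial sums of the lung libraries run from 4271 to 12728 against 607 to 2085 elsewhere, and the highest nuclear sums, 7580 and 8795, are those of SPF blood.

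The ratio of the summed mitochondrial to nuclear members does not depend on scaling between libraries and is given without a test. Its log2 value was -2.83 and -2.77 in GF blood, -2.66 and -2.62 in SPF blood, -1.26, -1.44 and -1.42 in GF spleen, and -1.80, -1.76 and -1.59 in SPF spleen. In lung it was 0.31, 0.48 and 1.44 in GF mice and -0.34, 0.01 and 0.48 in SPF mice. The 3 tissues did not overlap, with blood lowest, spleen between and lung highest. Group means were -2.80 ± 0.05 (SD, n = 2) in GF blood, -2.64 ± 0.03 (n = 2) in SPF blood, -1.37 ± 0.10 (n = 3) in GF spleen, -1.72 ± 0.11 (n = 3) in SPF spleen, 0.74 ± 0.61 (n = 3) in GF lung and 0.05 ± 0.41 (n = 3) in SPF lung. As a share of all recovered reads, mitochondrial members took 0.0617% to 0.108% in blood, 0.112% to 0.209% in spleen and 0.43% to 1.35% in lung. The lowest share rested on 82 reads, in GF blood replicate 3 (95% Wilson interval 0.0498% to 0.0766%). The highest, in GF lung replicate 4, had an interval of 1.32% to 1.38%, and such intervals cover counting error only.

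Compared per kilobase of transcript, the median of the mitochondrial members lay below that of the nuclear members in blood and above it in lung. Single members could lie on either side. The median level per kilobase of mitochondrial members was 8.06 in GF blood, 26.4 in SPF blood, 65.0 in GF spleen, 49.5 in SPF spleen, 356 in GF lung and 205 in SPF lung. For nuclear members the medians in the same order were 39.6, 79.0, 33.1, 43.9, 45.7 and 47.5. Averaged over the 6 groups, mt-Co3, a core subunit of cytochrome c oxidase, was the most abundant member at 807 per kilobase. It was followed by mt-Atp6 at 583, mt-Co1 at 539, mt-Co2 at 409 and then the first nuclear gene, Cox8a, a small subunit of the same oxidase, at 375. The next nuclear genes were Atp5b, the catalytic beta subunit of ATP synthase, at 317, Cox4i1 at 306, Cox6a1 at 279 and Ndufb9 at 218. At the low end were Atp5s at 1.25 and Ndufaf1 at 2.38 per kilobase. Cox8a exceeded every mitochondrial member in GF blood, where mt-Co1 was highest at 221 against 406 per kilobase for Cox8a, and was below 7 of the 13 in GF lung, the lowest of those being mt-Nd4 at 356 against 264 for Cox8a.

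**Figure D2:**
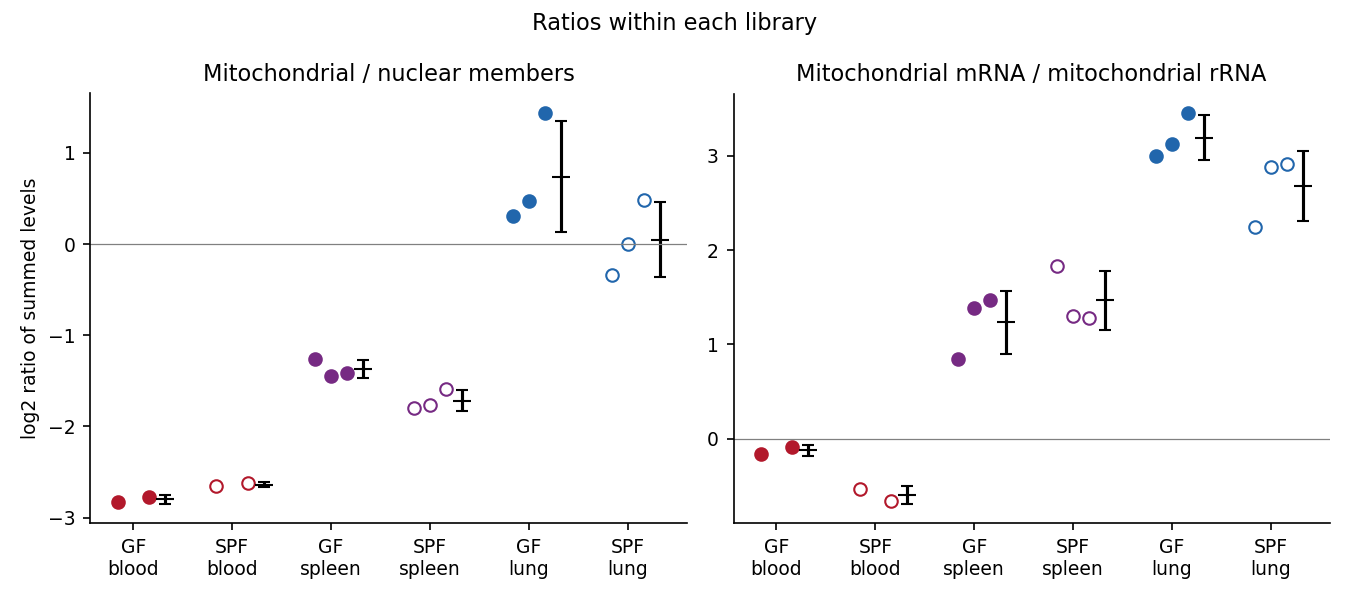
Log2 ratio of summed levels within each library, by group: mitochondrial over nuclear members (left) and the 13 mitochondrial members over the mitochondrial ribosomal RNAs mt-Rnr1 and mt-Rnr2 (right). Filled points are GF and open points SPF libraries, bars show mean ± SD, and on the left the tissues do not overlap (-2.83 to -2.62 in blood, -1.80 to -1.26 in spleen, -0.34 to 1.44 in lung).

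Lung was set against blood first. Among GF mice all 13 mitochondrial members were higher in lung (limma, adjusted p below the threshold of 0.05), against 7.83% of the 8299 genes tested that were called higher. Their median log2 difference was 3.51, or 3.63 with the member unseen in GF blood placed at its lower bound, while the median of all genes was 0.15. Log2 differences are on the scale of log2(value + 1), which can understate changes of low genes. The value there still holds the library's offset, which rises with what 1 read is worth. That was 0.392 normalised counts in SPF blood replicate 4 and 7.62 in SPF spleen replicate 1. Differences of genes with few reads can therefore carry a shift between libraries of unlike depth. In SPF mice 11 of the 13 were called higher, against 12.5% of genes, with a median of 2.18 against 0.16 for all genes. No mitochondrial member was lower in lung in either status. Libraries of lung and blood did not overlap for 13 of 13 members in GF mice, against 28.8% of genes higher without overlap, and for 12 of 13 in SPF mice, against 29.6%.

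Complex I members encoded in the mitochondria showed the widest range. The first gene after the ribosomal RNAs, mt-Nd1 (chrM:2751-3707), a subunit of the membrane arm, had levels of 15.4 and 0 in GF blood, 23.03 and 27.4 in SPF blood, 101, 109 and 48.1 in GF spleen, and 45.7, 98.3 and 113 in SPF spleen. In lung it reached 430, 488 and 863 in GF and 302, 287 and 422 in SPF mice, so that the 3 tissues did not overlap. Its difference between lung and blood was the largest of any member, 6.00 ± 0.47 (SE, adjusted p = 1.08e-08) in GF mice and 3.66 ± 0.47 (adjusted p = 7.84e-06) in SPF mice. The GF value rests on 33 reads in GF blood, all in replicate 2. A further membrane arm subunit, mt-Nd5, was at 8.42 and 7.41 in GF blood against 210, 222 and 515 in GF lung, a difference of 4.75 ± 0.42 (adjusted p = 9.68e-10), and in SPF mice the difference was 3.63 (adjusted p = 1.4e-07). Values for mt-Nd2 were 4.49 in GF (adjusted p = 2.15e-08) and 2.79 in SPF mice (adjusted p = 4.75e-05), and for mt-Nd4 they were 3.16 (adjusted p = 1.2e-06) and 2.05 (adjusted p = 0.000354).

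Short complex I genes were measured from few reads. For mt-Nd3 there were 4 reads in GF blood, 16 in SPF blood, 0 in GF spleen, 8 in SPF spleen, 60 in GF lung and 23 in SPF lung. For mt-Nd4l, 0 reads in GF blood faced 39 in GF lung, which puts its level in GF lung at least 12.4-fold higher than the level that 3 reads over both GF blood libraries would give. In the SPF comparison of lung with blood these were the 2 mitochondrial members that did not pass, at 1.59 (adjusted p = 0.13) for mt-Nd3 and 1.87 (adjusted p = 0.0657) for mt-Nd4l. Their GF calls were also the least stable. The call for mt-Nd3 was lost without GF blood replicate 2 or 3 or without GF lung replicate 3 or 4, and that for mt-Nd4l without GF blood replicate 2 or GF lung replicate 4. The minus-strand gene mt-Nd6 had 3 reads in GF blood and 102 in GF lung, and 9 in SPF blood and 59 in SPF lung, with adjusted p = 0.000311 in GF and 0.000676 in SPF mice.

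Complex III has 1 mitochondrial subunit, mt-Cytb (chrM:14145-15288), which carries the haems of the ubiquinol oxidation site. Its levels were 65.0 and 44.4 in GF blood and 103 and 89.0 in SPF blood, against 914, 995 and 1875 in GF lung and 674, 664 and 900 in SPF lung. The groups lay far apart, and the differences were 4.39 ± 0.33 (adjusted p = 3.81e-10) in GF and 2.93 ± 0.33 (adjusted p = 3.01e-07) in SPF mice.

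In complex IV, mt-Co1 (chrM:5328-6872), the catalytic subunit, gave the smallest differences of the mitochondrial members: 2.41 ± 0.31 (adjusted p = 5.19e-06) in GF and 1.12 ± 0.31 (adjusted p = 0.0126) in SPF mice. Levels were 394 and 289 in GF blood and 600 and 532 in SPF blood, against 1350, 1696 and 2568 in GF lung and 924, 1158 and 1728 in SPF lung. Blood and lung did not overlap. The SPF call was lost without SPF blood replicate 3 or 4, without SPF lung replicate 3, and with TMM rescaling, where the difference was 0.80. Differences for mt-Co2 were 3.06 (adjusted p = 1.02e-07) in GF and 1.75 (adjusted p = 0.000315) in SPF mice, and for mt-Co3 they were 4.14 (adjusted p = 3.27e-07) and 1.94 (adjusted p = 0.00123).

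Complex V contributes mt-Atp6 (chrM:7927-8607), part of the proton channel, and mt-Atp8. The level of mt-Atp6 was 82.8 and 74.1 in GF blood and 157 and 126 in SPF blood. It was 784, 891 and 1730 in GF lung and 595, 547 and 815 in SPF lung. These groups did not overlap, with differences of 3.71 ± 0.30 (adjusted p = 2.31e-10) and 2.18 ± 0.30 (adjusted p = 2.54e-06). For mt-Atp8, whose end lies inside mt-Atp6 as shown above, 4 reads in GF blood and 8 in SPF blood faced 113 in GF lung and 77 in SPF lung (adjusted p = 0.000277 and 0.000156).

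**Figure D3:**
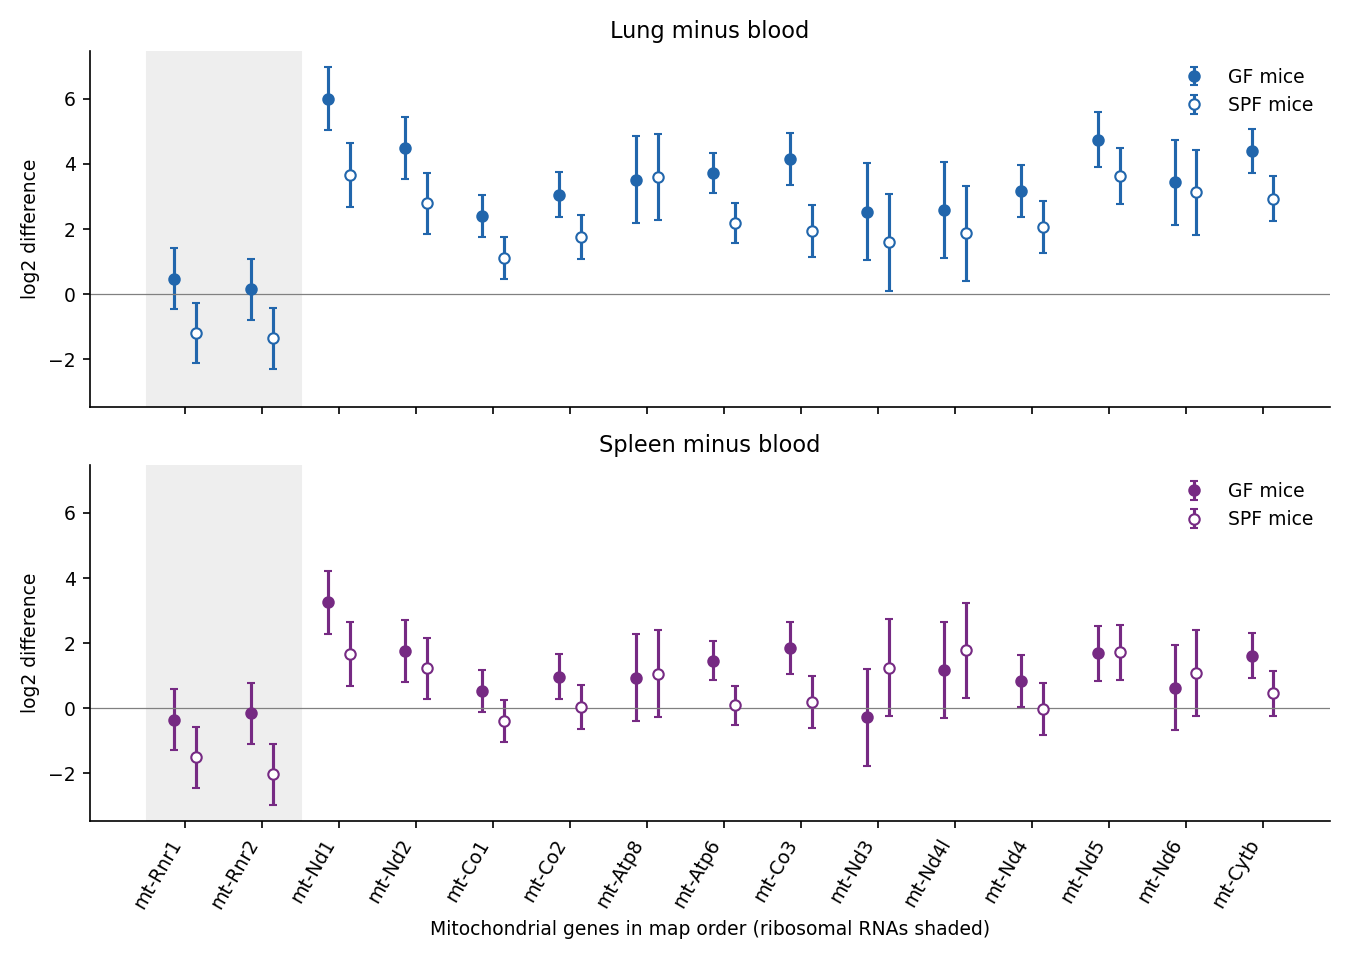
Log2 difference of lung minus blood (top) and spleen minus blood (bottom) for the mitochondrial ribosomal RNAs (shaded) and the 13 mitochondrial members in map order, with 95% intervals of the limma fit (filled points GF, open points SPF mice). In lung all 13 members lie above 0, from 2.41 to 6.00 in GF and from 1.12 to 3.66 in SPF mice, while the ribosomal RNAs lie between -1.35 and 0.47.

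Lung was also set against spleen, where the lung libraries are the same as above. In GF mice 12 of 13 mitochondrial members were called higher in lung, against 8.03% of genes tested, with a median difference of 2.58 and 0.11 for all genes. In SPF mice 11 were called higher, against 7.68% of genes, with a median of 1.91 and 0.06 for all genes. Libraries did not overlap for 13 members in GF mice (21.2% of genes) and 11 in SPF mice (18.2%). The largest GF difference was that of mt-Nd5, at 3.06 (adjusted p = 3.45e-07), and in SPF mice it was that of mt-Atp8, at 2.54 (adjusted p = 0.00315), with 8 reads in SPF spleen. The member that did not pass in GF mice was mt-Nd4l, at 1.40 (adjusted p = 0.185). In SPF mice mt-Nd3, at 0.35 (adjusted p = 0.833), and mt-Nd4l, at 0.08 (adjusted p = 0.968), did not pass. For mt-Nd3 the GF spleen libraries were at 0 reads, and its GF lung level was at least 6.01-fold higher than 3 reads over those libraries would give. The SPF call for mt-Nd2 was lost without SPF spleen replicate 2 or SPF lung replicate 3, and that for mt-Nd6 without SPF spleen replicate 1 or SPF lung replicate 1 or 3. Without the libraries under 250000 reads, which leaves SPF spleen with 1 library assumed to vary like the other groups, mt-Nd2, mt-Nd6 and mt-Atp8 lost their SPF calls.

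Between spleen and blood the mitochondrial members differed less than between lung and blood. In GF mice 5 of 13 were called higher in spleen, against 0.47% of genes: mt-Nd1 at 3.26 (adjusted p = 0.000355), mt-Co3 at 1.85 (adjusted p = 0.0212), mt-Nd5 at 1.69 (adjusted p = 0.0417), mt-Cytb at 1.62 (adjusted p = 0.0102) and mt-Atp6 at 1.47 (adjusted p = 0.00696). In SPF mice 2 were called higher, against 3.05% of genes: mt-Nd5 at 1.72 (adjusted p = 0.0107) and mt-Nd1 at 1.67 (adjusted p = 0.0345). The SPF value of mt-Co1 was -0.39 (adjusted p = 0.465) and that of mt-Co2 was 0.04 (adjusted p = 0.95). The medians were 1.18 in GF mice (0.98 with members unseen in a group placed at their bound) and 1.06 in SPF mice, against 0.04 and 0.09 for all genes. Libraries did not overlap, with spleen higher, for 9 members in GF mice (10.2% of genes) and 4 in SPF mice (12.3%). The counts of calls moved with single libraries. In GF mice the count was 1 without GF blood replicate 3, 3 without GF spleen replicate 1 and 2 without GF spleen replicate 3. In SPF mice it was 0 without SPF blood replicate 4, and 1 without SPF blood replicate 3, SPF spleen replicate 2 or SPF spleen replicate 4.

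The mitochondrial ribosomal RNAs, which lie upstream of mt-Nd1 in the same precursor and are no members, did not follow the messenger RNAs. The level of the large ribosomal RNA mt-Rnr2 was 903 and 585 in GF blood, 1885 and 1824 in SPF blood, 1080, 575 and 450 in GF spleen and 229, 600 and 672 in SPF spleen. In lung it was 698, 718 and 1043 in GF and 834, 572 and 805 in SPF mice. Lung and blood overlapped in GF mice, where the difference was 0.14 ± 0.44 (adjusted p = 0.897), and SPF blood stood above SPF lung, with a difference of -1.35 ± 0.44 (adjusted p = 0.0453). For the small ribosomal RNA mt-Rnr1 the differences were 0.47 (adjusted p = 0.605) in GF and -1.19 (adjusted p = 0.0665) in SPF mice. In SPF spleen both were lower than in SPF blood, mt-Rnr2 at -2.02 (adjusted p = 0.0144) and mt-Rnr1 at -1.50 (adjusted p = 0.0434). The summed mitochondrial members divided by the summed ribosomal RNAs gave 0.633 to 0.943 in blood, 1.80 to 3.55 in spleen and 4.74 to 10.9 in lung, again without overlap between the tissues.

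The make-up of the mitochondrial messenger pool also differed by tissue. The largest single contributor in blood was mt-Co1, with 43.0% to 47.6% of the summed level of the 13 members. It held 27.7% to 31.9% in spleen and 20.2% to 26.7% in lung. Shares of mt-Cytb went the other way, at 7.21% to 7.64% in blood, 7.69% to 11.6% in spleen and 13.9% to 15.8% in lung, as did those of mt-Nd1, at 0% to 2.22%, 3.70% to 6.70% and 6.31% to 7.28%. For mt-Co1 and mt-Cytb the tissues did not overlap, whereas spleen and lung overlapped for mt-Nd1. The gap between blood and spleen for mt-Cytb was narrow, at 7.64% in GF blood replicate 2 and 7.69% in SPF spleen replicate 1. The latter library had 117 mitochondrial reads. Shares of mt-Co3 overlapped between all 3 tissues (9.76% to 20.9% in blood, 18.1% to 23.9% in spleen and 18.1% to 21.4% in lung).

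Markers of lung cells were also highest in the lung libraries, and their part in the result was not tested. Of 28 such markers on the list 20 were measured, and 18 were called higher in lung than in blood in GF mice and 20 in SPF mice. The surfactant gene Sftpc, which defines alveolar type 2 cells, was at 1715 to 7069 in lung, against 14.8 or less in blood and 10.1 or less in spleen. In the lung libraries, listed from GF replicate 2 to 4 and then SPF replicate 1 to 3, the summed markers were 6096, 12924, 12861, 3768, 5398 and 7081. The summed mitochondrial members in the same order were 5905, 6989, 12728, 4271, 4541 and 6463. Of the lung libraries, SPF replicate 1 was lowest in both sums. GF replicates 3 and 4 had like marker sums, 12924 and 12861, and mitochondrial sums of 6989 and 12728. In every library of blood and spleen the lung markers summed to 86.2 or less. Of the 20, 10 were at 0 reads in every spleen library, and 0 of 20 were called between spleen and blood in either status. Of 10 tested B cell markers, 2 were called higher in lung than in blood in GF mice (7.83% of genes) and 7 in SPF mice (12.5%), with summed levels of 487 to 710 in blood and 508 to 751 in lung. Summed macrophage and monocyte markers were 13882 to 20218 in blood, 15968 to 24982 in spleen and 8740 to 10846 in lung. The typical purity of the sort was stated as over 95%.

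**Figure D4:**
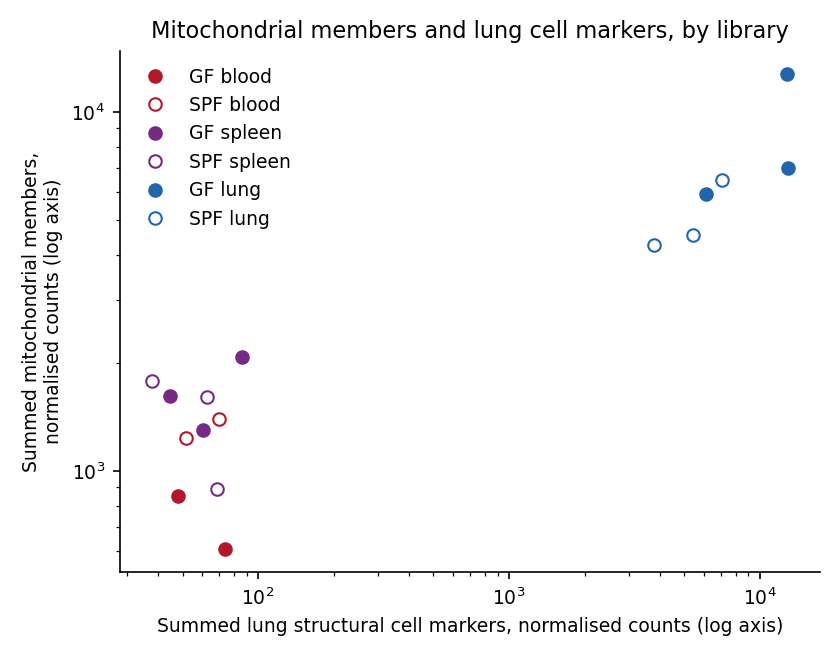
Summed level of the 13 mitochondrial members against the summed level of 20 lung structural cell markers in each library, both in normalised counts on log axes (filled points GF, open points SPF). The lung libraries lie apart from all others on both axes, at 3768 to 12924 on the marker axis, while blood and spleen lie together between 37.6 and 86.2 on it.

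Among the nuclear members few were called in lung, and the calls made in SPF mice were in the other direction from those of the mitochondrial members. In GF mice limma called 1 of 79 higher in lung than in blood and 0 lower, against 7.83% of genes called higher and 1.96% called lower. An unadjusted p below 0.05 was found for 1817 of all 8299 genes, 553 of them lower, and for 11 nuclear members, 2 of them lower. The number called was 5, all higher, without GF blood replicate 2, and 2, both higher, without SPF spleen replicate 4. It was 2 higher and 1 lower without SPF spleen replicate 1, 1 higher and 2 lower without libraries under 250000 reads, and 0 without GF blood replicate 3, SPF blood replicate 4, GF lung replicate 2 or 4, or SPF lung replicate 2 or 3. The median difference of the nuclear members was 0.00, with 40 positive and 39 negative, against 4794 positive and 3505 negative of all 8299 genes. In SPF mice 0 of 79 were higher and 9 were lower, against 6.63% of genes called lower, with a median of -0.74. Against spleen, limma called 0 of 79 in GF mice and 0 in SPF mice. An unadjusted p below 0.05 was found for 10 in GF and 4 in SPF mice, all higher in lung. Such a p was found for 1824 of all genes in GF mice and 1726 in SPF mice, 545 and 550 of them lower. Of all genes 8.03% were called higher and 2.14% lower in GF mice, and 7.68% higher and 1.99% lower in SPF mice, while the nuclear medians were 0.34 and 0.25. The GF count, all higher in lung, was 3 without SPF spleen replicate 1, 2 without GF spleen replicate 3 and 1 without GF blood replicate 2 or 3, GF spleen replicate 1, SPF spleen replicate 4 or GF lung replicate 3, and the SPF count was 2, both higher, without SPF spleen replicate 2. Between spleen and blood limma called 0 in GF mice, where 0.47% of genes were called higher and 0.41% lower, with a nuclear median of -0.24. An unadjusted p below 0.05 was found for 1001 of all genes, 428 of them lower in spleen, and for 7 nuclear members, 5 of them lower. Leaving out GF blood replicate 2 left GF blood with 1 library. Leaving out libraries under 250000 reads left GF blood and GF spleen with 1 each. Counts from these fits rest on the spread of the other groups. In SPF mice 8 of 79 were called lower in spleen than in blood, against 4.01% of genes, with a median of -0.90. Both SPF comparisons with blood use the same SPF blood libraries, in which the nuclear-retained RNA Malat1 also stood high, at 8730 and 6360 against 2550 to 2638 in SPF lung and 1512 to 2634 in SPF spleen. Summed erythroid and platelet genes were 44760 and 70937 in SPF blood and higher, at 82755 and 100170, in GF blood, where the nuclear sums were lower. The part of Malat1 and of these cells in the result was not tested. Libraries did not overlap, with SPF lung lower, for 52 of 79 nuclear members, against 23.9% of all genes, and the same count of 52 held for SPF spleen, against 23.7%.

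**Figure D5:**
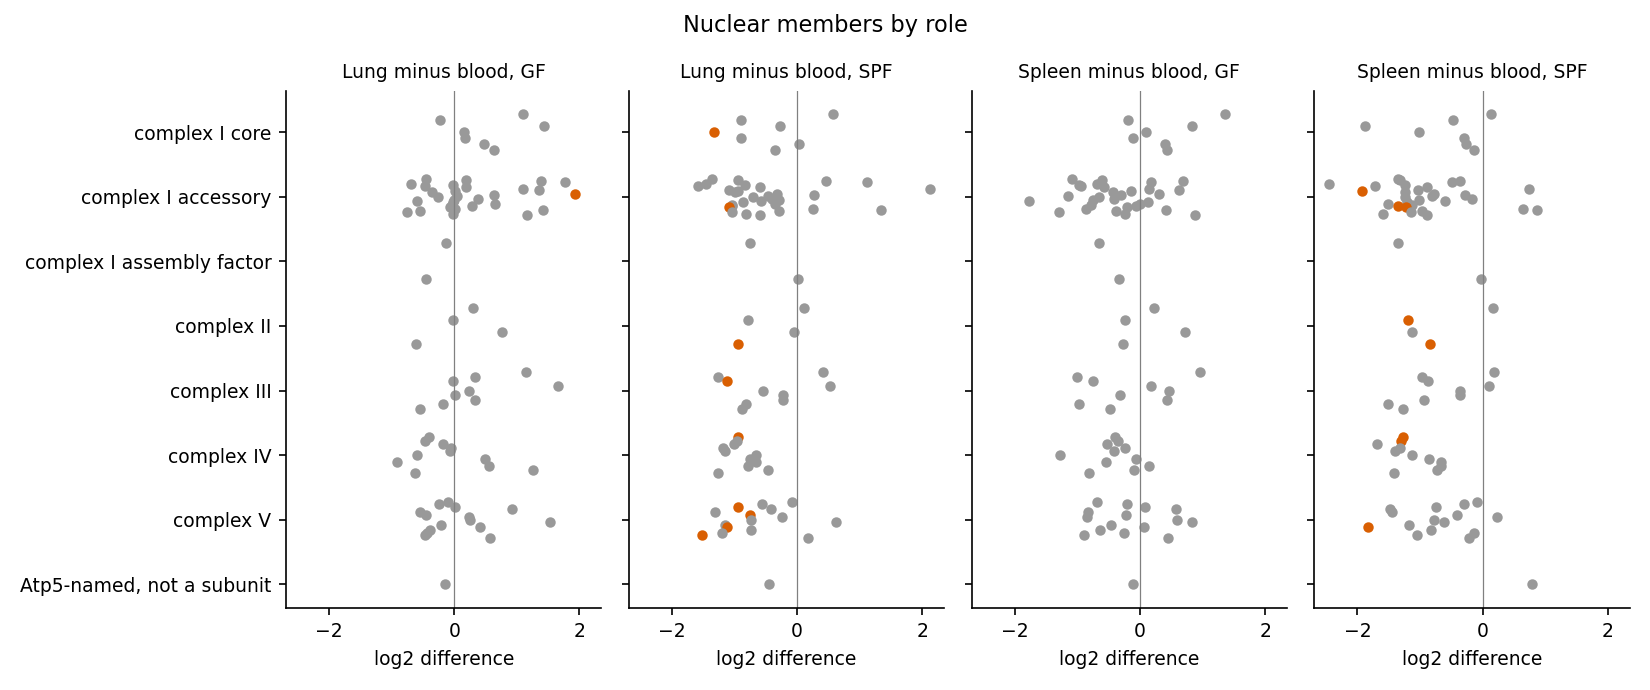
Log2 difference of each tested nuclear member by role, for lung and spleen minus blood in GF and SPF mice. Each point is a gene, orange where the limma adjusted p was under 0.05 and grey otherwise; the called genes are 1 higher in GF lung, 9 lower in SPF lung and 8 lower in SPF spleen, and the SPF points lie mostly below 0.

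The counts in SPF mice moved with the scaling and with single libraries. TMM rescaling moved the median of all genes from 0.16 to -0.16 in SPF lung minus blood and from 0.09 to -0.21 in SPF spleen minus blood, and the nuclear medians from -0.74 to -1.06 and from -0.90 to -1.22. Relative to the median of all genes, the nuclear median was -0.90 under both scalings in lung, and -0.99 and -1.01 in spleen. The share of all calls that were higher went from 65.3% to 49.2% in lung and from 43.2% to 20.2% in spleen. The number of nuclear members called lower in SPF lung was 16 with TMM rescaling, 34 without libraries under 250000 reads, 0 without SPF blood replicate 3, and 5 without SPF blood replicate 4. It was 14 without GF spleen replicate 1 or 4, 21 without SPF spleen replicate 1, 4 without SPF lung replicate 2 and 5 without SPF lung replicate 3. In SPF spleen it was 1 without libraries under 250000 reads, 0 without SPF blood replicate 3, 2 without SPF blood replicate 4, 3 without SPF spleen replicate 1 and 14 without SPF spleen replicate 4. It was 5 without GF lung replicate 3, GF lung replicate 4, SPF lung replicate 2 or SPF lung replicate 3. Leaving out a blood library leaves that group with 1, assumed to vary like the other groups.

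Of the nuclear members, 4 were called lower in both SPF lung and SPF spleen than in SPF blood, which is 44.4% of those called in lung and 50% of those called in spleen: Cox4i1, Ndufb9, Sdhd and Atp5j. Cox4i1 (chromosome 8, 120668222 to 120674207), the ubiquitous isoform of the regulatory subunit 4 of cytochrome c oxidase, was at 232 and 215 in GF blood and 445 and 380 in SPF blood. It was at 157, 173 and 174 in GF spleen, 99.1, 234 and 202 in SPF spleen, 175, 160 and 174 in GF lung and 231, 207 and 202 in SPF lung. SPF blood alone stood high, and the differences were -0.94 ± 0.28 (adjusted p = 0.0149) for SPF lung and -1.27 ± 0.28 (adjusted p = 0.00477) for SPF spleen. Ndufb9, an accessory subunit of the membrane arm of complex I, was at 309 and 259 in SPF blood, 132, 135 and 130 in SPF lung and 61.0, 158 and 169 in SPF spleen. The SPF lung libraries were close together and lay below SPF blood (-1.08, adjusted p = 0.0237, and -1.22, adjusted p = 0.0272, for spleen).

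Sdhd, a membrane anchor of succinate dehydrogenase, was at 353 and 298 in SPF blood, 177, 157 and 170 in SPF lung and 137, 207 and 198 in SPF spleen. In GF blood it was at 307 and 215, and in GF lung at 174, 180 and 152. Differences in SPF mice were -0.94 (adjusted p = 0.00939) for lung and -0.85 (adjusted p = 0.0434) for spleen, and -0.62 (adjusted p = 0.148) for lung in GF mice. Atp5j, coupling factor 6 of the ATP synthase stalk, was at 220 and 198 in SPF blood, 138, 78.1 and 78.1 in SPF lung and 30.5, 87.9 and 61.1 in SPF spleen, against 104 and 37.0 in GF blood. Differences were -1.13 (adjusted p = 0.0485) for SPF lung and -1.83 (adjusted p = 0.00533) for SPF spleen. All 4 of these calls were lost without SPF blood replicate 3, in lung and in spleen.

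Promoter sequences are shown for the shared genes found in a RefSeq promoter table of GRCm38.p6, which matched 66 of the 81 nuclear members with 71 promoters. Windows run from 250 bases before to 50 bases after the transcript start. The letters searched on both strands were TGCGCA, a core of the NRF1 site that is its own reverse complement, CCGGAAG for the ETS family to which GABPA belongs, and ATGGCGG for YY1, factors known as regulators of respiratory genes. None of the matches shown overlaps another, and all are in capitals. Both windows are read on the minus strand, at chr9:50603800-50604099 for Sdhd and chr16:84834927-84835226 for Atp5j.
Sdhd: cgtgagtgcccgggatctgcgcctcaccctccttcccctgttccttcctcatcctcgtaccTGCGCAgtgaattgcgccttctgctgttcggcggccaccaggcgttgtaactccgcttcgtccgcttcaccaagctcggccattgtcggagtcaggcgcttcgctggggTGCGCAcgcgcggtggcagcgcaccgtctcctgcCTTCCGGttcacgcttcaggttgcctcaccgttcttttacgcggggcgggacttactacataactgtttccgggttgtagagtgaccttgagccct
Atp5j: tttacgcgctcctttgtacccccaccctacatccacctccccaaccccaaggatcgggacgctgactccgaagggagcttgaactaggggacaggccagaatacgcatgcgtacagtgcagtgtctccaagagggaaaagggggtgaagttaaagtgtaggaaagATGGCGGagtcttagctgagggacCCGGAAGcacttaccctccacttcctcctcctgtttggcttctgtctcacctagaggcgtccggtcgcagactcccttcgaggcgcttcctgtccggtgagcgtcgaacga
The Sdhd window holds 2 NRF1 matches and an ETS match on the opposite strand, and the Atp5j window a YY1 match and an ETS match. Among the members' promoters 18 of 71 (25.4%) held the NRF1 letters, against 7.76% of all 32851 promoters of that length. The ETS letters stood in 17 of 71 (23.9%) against 8.86%, and the YY1 letters in 12 of 71 (16.9%) against 4.06%. A match is a description of letters and not of a bound site.

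Among the other complexes, complex I held the call of Ndufs7, a core subunit with an iron-sulphur cluster on the path to ubiquinone. Its levels were 169 and 156 in SPF blood and 74.9, 51.3 and 67.7 in SPF lung, with 76.7 and 44.4 in GF blood. SPF lung was lower than SPF blood by -1.32 ± 0.33 (adjusted p = 0.00458). In SPF spleen the accessory subunits Ndufb8 (-1.35, adjusted p = 0.0308) and Ndufa7 (-1.92, adjusted p = 0.0434) were lower than in SPF blood. The core subunits Ndufv1, which binds NADH, and Ndufs1 were called in no comparison. Their levels averaged 42.3 ± 7.20 (SD, n = 2) and 41.4 ± 3.71 in SPF blood, and 43.0 ± 7.88 (SD, n = 3) and 62.3 ± 10.3 in SPF lung. Ndufa9, an accessory subunit beside the ubiquinone site, was the nuclear gene called higher in GF lung, at 21.7, 24.8 and 30.4 against 9.35 and 0 in GF blood (1.94 ± 0.61, adjusted p = 0.0395). That call was lost without GF blood replicate 3, SPF blood replicate 4, any GF lung library, or SPF lung replicate 2 or 3. The widest nuclear differences that did not pass were those of Ndufa13, at -2.46 (adjusted p = 0.161) in SPF spleen minus blood, and Ndufa5, at 2.12 (adjusted p = 0.0758) in SPF lung minus blood, the latter from 3 reads in SPF blood.

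Within complex II some members were called and others were not. Sdha, the flavoprotein, had group means of 297 ± 189 (n = 2) in GF blood, 271 ± 9.57 (n = 2) in SPF blood, 317 ± 77.4 (n = 3) in GF spleen, 302 ± 30.8 (n = 3) in SPF spleen, 329 ± 18.4 (n = 3) in GF lung and 296 ± 45.6 (n = 3) in SPF lung, and was called in no comparison. Sdhb, the iron-sulphur subunit, was at 224 and 213 in SPF blood and 45.7, 118 and 141 in SPF spleen (-1.20 ± 0.35, adjusted p = 0.0341). The membrane anchor Sdhc was called in no comparison. Its level per kilobase was 8.30 in SPF blood and 3.19 in SPF spleen, and 3.60 in GF blood and 6.65 in GF spleen.

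In complex III the only nuclear member called in these fits was Uqcr11, a small subunit. Its mean was 79.7 ± 2.32 (n = 2) in SPF blood and 37.3 ± 14.2 (n = 3) in SPF lung (-1.11, limma adjusted p = 0.0417). The core protein Uqcrc1, the Rieske protein Uqcrfs1, cytochrome c1 (Cyc1) and the hinge protein Uqcrh were called in none of the 9 comparisons between groups. In complex IV all 11 nuclear members had negative differences from SPF blood. These ran from -1.26 to -0.46 in SPF lung and from -1.69 to -0.66 in SPF spleen. Of all 8299 genes, 3668 were negative in SPF lung and 3839 in SPF spleen. Apart from Cox4i1 the nuclear subunit Cox5a was called in spleen (87.4 ± 9.92, n = 2, in SPF blood against 32.6 ± 1.91, n = 3, limma adjusted p = 0.0459). Cox6a1 missed the threshold at -1.18 (adjusted p = 0.0563) in lung, and Cox8a, the most abundant nuclear member per kilobase, had 393 in both SPF blood libraries and 252, 153 and 111 in SPF lung without passing.

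Complex V held 4 of the 9 calls of nuclear members in SPF lung. Besides Atp5j these were Atp5l, subunit g of the membrane sector, at 208 and 169 in SPF blood against 82.8, 66.4 and 47.9 in SPF lung (-1.52 ± 0.37, adjusted p = 0.00346). The central stalk subunit Atp5c1, at 337 and 258 against 156, 118 and 192, was also called (-0.95, adjusted p = 0.0131), as was the peripheral stalk subunit Atp5f1 (-0.75, adjusted p = 0.038). In each of these the blood libraries stood above the lung libraries. The catalytic subunit Atp5b was the highest nuclear member in counts, at 767 and 701 in SPF blood and 445, 538 and 513 in SPF lung, and did not pass (-0.56, adjusted p = 0.0614). Atp5a1 and the c-ring genes Atp5g1, Atp5g2 and Atp5g3 were called in no comparison.

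A further set of comparisons asked how GF and SPF mice differed within a tissue. With limma 0 of 13 mitochondrial members were called in blood, spleen or lung, against 1.33%, 0.325% and 0.0241% of genes. At an unadjusted p below 0.05 there were 1367, 1032 and 332 of all 8299 genes, and 5, 2 and 5 mitochondrial members. The median GF minus SPF difference was -0.59 in blood, 0.21 in spleen and 0.71 in lung. In lung all 13 values were positive, from 0.32 to 0.92, against 4373 positive of all 8299 genes. The log2 ratio of mitochondrial to nuclear members was 0.69 higher in GF than in SPF lung, and 0.34 higher without GF lung replicate 4. In lung the groups overlapped in that ratio. In spleen it was 0.34 higher in GF mice, and every GF spleen library lay above every SPF one. In blood the difference was -0.16, with both GF libraries below both SPF libraries. Differences of mt-Co3 were -1.41 in blood (adjusted p = 0.0967) and 0.78 in lung (adjusted p = 0.999). Without GF blood replicate 2, the count in blood was 2, and it was 1 without SPF spleen replicate 1.

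Nuclear members were lower in GF than in SPF blood in 73 of 79 cases by sign, against 4063 of all 8299 genes. The members share the same libraries, so their signs are not independent. Their median was -0.81, and libraries did not overlap for 59 of 79, against 30.5% of all genes. Ndufs7 was the 1 that passed (-1.40 ± 0.36, adjusted p = 0.0455), against 0.53% of genes called lower, and Atp5j came next at -1.66 (adjusted p = 0.0526). The call for Ndufs7 was lost in 10 of the 16 fits that left out a library, among them those without GF blood replicate 3 (-1.07), SPF blood replicate 3 (-1.34) or SPF blood replicate 4 (-1.46). The count of nuclear members called was 7 without SPF spleen replicate 1, 6 without GF blood replicate 2, 3 without GF spleen replicate 1, and 2 without GF spleen replicate 4 or SPF spleen replicate 4. TMM rescaling moved the median of all genes here from 0.02 to -0.24 and that of nuclear members to -1.07, which relative to all genes is -0.84 and -0.83, and ended the call. The share of higher calls went from 60% to 29.4%. In spleen and lung 0 of 79 nuclear members were called, with medians of -0.14 and -0.03. At an unadjusted p below 0.05 there were 7 and 0 nuclear members, and 1032 and 332 of all 8299 genes. In spleen the count of nuclear members called was 2 without SPF spleen replicate 1 and 1 without GF spleen replicate 1. The nuclear-retained RNA Malat1 differed between the same blood groups, at 1813 and 1241 in GF and 8730 and 6360 in SPF blood, and its part in the result was not tested.

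Whether tissue differences depended on status was tested as an interaction. With limma 0 of 13 mitochondrial and 0 of 79 nuclear members passed for lung against blood, lung against spleen, or spleen against blood, against 0.012%, 0.012% and 0.759% of genes. At an unadjusted p below 0.05 there were 7, 2 and 5 mitochondrial and 7, 1 and 12 nuclear members, and 623, 561 and 1185 of all 8299 genes. The largest mitochondrial value for lung against blood was that of mt-Nd1, at 2.34 ± 0.66 (SE, adjusted p = 0.302), and mt-Co3 followed at 2.20 (adjusted p = 0.22). Without GF blood replicate 2, which leaves the shallow replicate 3 alone, 2 mitochondrial members passed for lung against blood, and 2 mitochondrial and 1 nuclear for spleen against blood.

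Other genes of the mitochondrion were counted from lists of known function, to be read against all genes tested between lung and blood, of which 7.83% were called higher and 1.96% lower in GF mice and 12.5% higher and 6.63% lower in SPF mice. Among 13 tested genes of mitochondrial DNA maintenance and transcription, 0 were called between lung and blood in GF mice, and in SPF mice Polg, the DNA polymerase of mitochondria, was higher in lung (1.82, adjusted p = 0.0014) and the terminator Mterf1a lower (-2.25, adjusted p = 0.0158). Levels of Polg were 11.3 and 16.1 in SPF blood and 55.1, 57.1 and 40.6 in SPF lung, with 36.5 and 29.6 in GF blood. Of 15 genes of mitochondrial RNA processing 0 were called between lung and blood in either status, and of 8 regulators of biogenesis, Nrf1 and Gabpa among them, 0 were. Of 59 tested mitochondrial ribosomal protein genes 0 were called in GF and 2 in SPF mice, Mrpl43 (-1.47, adjusted p = 0.00517) and Mrps15 (-1.29, adjusted p = 0.0488), both lower in lung. Among 24 assembly factors 0 were called in GF mice, and in SPF mice 2 were higher in lung and 1 lower. The median differences of these lists lay between -0.35 and 0.31.

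Carriers of the inner membrane, listed together with cytochrome c and uncoupling genes, differed among themselves. Of 15 genes tested on that list, 1 was higher and 2 were lower in lung than in blood in SPF mice, against 12.5% and 6.63% of genes. In GF mice 2 were higher, against 7.83% of genes: Slc25a4, the adenine nucleotide translocator of heart and muscle, and Slc25a3, the phosphate carrier. Slc25a4 was at 0.94 and 0 in GF blood and 1.81 and 0 in SPF blood, against 36.2, 38.1 and 24.6 in GF lung and 31.5, 30.3 and 53.1 in SPF lung (adjusted p = 0.000428 and 1.27e-05). The translocator abundant in blood, Slc25a5, was at 1117 and 874 in SPF blood and 333, 506 and 494 in SPF lung (-1.17, adjusted p = 0.000773). Slc25a3 was at 133 and 126 in GF blood and 321, 306 and 260 in GF lung (1.16, adjusted p = 0.00286). In the tricarboxylic acid cycle 3 of 16 genes were higher and 1 lower in SPF lung. In GF mice 1 of 16 was higher, against 7.83% of genes, the mitochondrial isocitrate dehydrogenase Idh2 at 1.87 and 0 in blood and 15.7, 38.9 and 46.4 in lung (adjusted p = 0.00179). Of 18 glycolysis genes 2 were lower in lung than in blood in GF mice, against 1.96% of genes. In SPF mice 7 were lower, against 6.63% of genes, and 1 higher, and the lower ones included Gapdh (-1.46, adjusted p = 7.56e-05) and Eno1 (-1.24, adjusted p = 8.32e-05).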

How the data were processed

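RNA of Ly6G-positive neutrophils was amplified with a low-input kit and sequenced in paired-end mode, per the labels' protocols. The submitters' processing notes name CASAVA, RSEM 1.3.1, limma and mm10; the annotation version, filter and scaling are not given in the sources used here. The deposited table gives 10296 genes a linear signal value in each library. The smallest value of each library is the value of 0 reads, and the level (normalised count) is the value less that offset; reads were estimated by the same relation (91.4% to 98.72% of low values fell within 0.05 of a whole read) and used for depth and bounds only. Identifiers matched GENCODE M21 for 10275 genes and all 94 members. The filter asked for 10 or more in 2 or more libraries, which kept 8299 genes and removed 1997.

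Differences were fitted in limma 3.58.1 (R 4.3.3) on log2(value + 1), as 1 model of 6 group means over the 16 libraries, with a trended, robust prior. Tests were two-sided and p-values were adjusted by Benjamini-Hochberg over all genes in each of 12 comparisons (threshold 0.05). The fit was tested on simulated data. Levels per kilobase used the annotated principal transcript (APPRIS principal 1), the shortest where there were several. For 6 members without one the longest transcript of the gene was used. Bounds used a floor of 3 reads over the group at 0, for counting error only. Alternatives were a pseudocount of 5, no filter, TMM rescaling, a replicate block, leaving out libraries under 250000 reads and each library in turn. Leaving out libraries under 250000 reads leaves 1 library each in GF blood, GF spleen and SPF spleen, assumed to vary like the other groups. The members and lists were chosen with earlier results of these data known. Named were all mitochondrial members, nuclear members of smallest p among those called, a panel of main subunits, those highest and lowest per kilobase, and those with the widest differences; Atp5f1, Uqcr11 and Ndufa7 fall outside that rule and were named after their values were seen.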

Additional observations from a re-analysis of the deposited data

How the results depend on the processing

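The number of mitochondrial members called higher in lung stayed within 1.5 times of its value in all alternatives run: leaving out single libraries gave 11 to 13 (GF) and 10 to 12 (SPF) against blood, and 12 (GF) and 9 to 11 (SPF) against spleen. The differences in ratio kept their sign in every alternative, as did the called members the text names wherever they were tested. With TMM rescaling mt-Nd4l did not pass the filter on low values, so it was not tested there. The balance of nuclear calls did turn: for GF lung against blood it was 1 higher and 0 lower, but 1 higher and 2 lower without libraries under 250000 reads.

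The nuclear counts were less steady. For lung against blood they were 0 with TMM rescaling and 3 (1 higher, 2 lower) without libraries under 250000 reads in GF mice (0 to 5 over left-out libraries), and 16 and 34 in SPF mice (0 to 21). For lung against spleen in GF mice they were 3 with a pseudocount of 5 and 2 without libraries under 250000 reads (0 to 3), and 0 to 2 in SPF mice over left-out libraries. For spleen against blood the mitochondrial count was 1 in GF mice without libraries under 250000 reads (1 to 6 over left-out libraries) and 1 in SPF mice with TMM rescaling (0 to 2), and the nuclear count was 1, lower in spleen, in either status without libraries under 250000 reads (0 to 1 in GF and 0 to 14 in SPF mice over left-out libraries). For GF minus SPF in blood the nuclear count was 2 with a pseudocount of 5, 0 with TMM rescaling and 0 without libraries under 250000 reads (0 to 7 over left-out libraries), and the mitochondrial count 0 to 2. In spleen the nuclear count was 0 to 2. Interactions gave 0 to 2 mitochondrial members for lung against blood and for spleen against blood, and 0 to 1 nuclear for the latter. The cause was not tested.

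The difference in log2 ratio between tissues was 3.54 (lung minus blood, GF), 2.69 (SPF), 1.43 (spleen minus blood, GF) and 0.92 (SPF). As the difference of medians over members it was 5.03, 3.96, 2.94 and 2.41, and without mt-Co1, an alternative chosen after seeing the data, the first 3 were 4.09, 3.09 and 1.83. Leaving out single libraries gave 3.193 to 3.759 (lung minus blood, GF), 2.47 to 2.881 (SPF), 1.764 to 2.33 (lung minus spleen, GF), 1.549 to 1.96 (SPF), 1.372 to 1.464 (spleen minus blood, GF), 0.8581 to 0.9624 (SPF), and 0.3426 to 0.9089 for GF minus SPF in lung.

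Whether the replicate numbers pair the libraries could not be decided. Over 9 pairs of the same number and status in different tissues, the correlation of deviations from group means was -0.128 to 0.0682. Over 33 pairs of different number and the same status in different tissues it was -0.109 to 0.128. With so few libraries in a group, deviations from its mean depend on each other, so shared animals could be missed. With the replicate block the nuclear count was 1 for lung against blood in SPF mice, 1 for lung against spleen in GF mice, and 0 for spleen against blood in SPF mice and for GF minus SPF in blood; the mitochondrial count for spleen against blood was 0 in GF and 1 in SPF mice. A planned count test on recovered reads was not run, since only 91.4% to 94.34% of low values in 9 libraries came within 0.05 of a whole read and the deposited values are not counts. Depth limits the short genes mt-Nd3, mt-Nd4l, mt-Nd6 and mt-Atp8 and any nuclear member near 1 read in a spleen library.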
